A study of Mus musculus with 20 samples.

Results

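Accessible chromatin of cardiac fibroblasts 4 weeks after myocardial infarction (MI) was compared with that of uninjured hearts, using the ATAC-seq peak lists of 2 libraries per group. Peaks of the 4 lists that overlapped by 1 base or more were merged into 93726 regions on chromosomes 1 to 19 and X. The lists of all 10 ATAC-seq libraries of the series, merged separately in the same way, gave 143246 regions. A region was called gained when both week 4 lists and neither uninjured list had a peak in it, and lost in the reverse case. By this rule 4267 regions were gained, 4.55% of all merged regions, and 5444 were lost, 5.81%. Every library came from eGFP-positive cells of the Tcf21 lineage, sorted from digested mouse hearts with a gate set on wild-type cells without eGFP. Mice of all groups, the uninjured ones included, received tamoxifen (75 mg/kg body weight per day for 5 days) to activate MerCreMer, a Cre recombinase that enters the nucleus once tamoxifen binds it. The uninjured group had no infarction, and the week 4 group had MI 4 weeks earlier. Strain, sex and age of the mice, the number of animals in a library and the interval between tamoxifen and MI are facts not given in the sources used here. Such a label marks cells in which the Tcf21 driver was active at the time of tamoxifen, and their descendants, so fibroblasts of any other origin lie outside the comparison. The labels call the cells cardiac fibroblasts and do not say which part of the heart was taken.

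ATAC-seq uses the Tn5 transposase, which inserts adapters into DNA that is not wrapped tightly into chromatin, so peaks of inserted fragments mark promoters and enhancers that are open in the cells. Resident fibroblasts of the heart carry Tcf21, a basic helix-loop-helix transcription factor. After infarction they proliferate, pass through a contractile and matrix-secreting myofibroblast state, and later remain in the mature scar. Transcription factors of the AP-1, RUNX, TEAD and SMAD families are known to act at enhancers during such activation.

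The 4 lists held 63882 and 71878 peaks (uninjured) and 69207 and 70123 peaks (week 4). The groups overlapped in list length, and the peaks covered 111 and 118 Mb against 118 and 110 Mb. Peak strength was not alike. The median fold enrichment over local background, the authors' own value for each peak, was 8.11 and 7.21 in the uninjured lists and 6.11 and 5.54 at week 4, and 82.4% and 78.7% against 70.5% and 69.6% of the peaks had a −log10 q of 5 or more. Library codes of both uninjured libraries begin with A and those of both week 4 libraries with B, so code letter and group cannot be told apart here. Overlap of whole lists, as shared over joint length, was 0.690 for the uninjured pair, 0.651 for the week 4 pair and 0.587 to 0.623 between groups. The RNA-seq libraries, prepared from cells sorted the same way, held 16397211 to 21043997 expected counts. In them the 7 fibroblast markers summed to 30200 and 34500 CPM (counts scaled to the library size by TMM, the usual CPM unit) in uninjured and 30300 and 30200 CPM in week 4 libraries, against 143 to 221 CPM for 7 endothelial, 31.2 to 155 CPM for 7 macrophage, 42.6 to 92.8 CPM for 7 cardiomyocyte and 316 to 860 CPM for 6 pericyte and smooth muscle markers. The 3 erythroid genes summed to 1270 to 3870 CPM. Among the 7 fibroblast markers Col1a1 and Col1a2 rose, while the median log2 fold change, week 4 over uninjured, was −0.54. Their similar sums therefore do not mean that each marker stayed level.

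Few gained or lost regions lay at a gene start. In the RefSeq promoter table (GRCm38.p6), 132 of 32619 windows covering the 250 bases before a start overlapped a gained region, 189 a lost one and 15405 a region found in all 4 lists. Of these windows 5 are printed, 5′ to 3′ on the strand of the gene. For 4 of them a gained region was centred within 1000 bases of a start of its nearest gene, with higher RNA at week 4, or a lost region likewise with lower RNA. The other is that of Thbs4, which was to be reported in any case. Windows overlapped only by a region centred farther away were not searched for called genes. Capitals mark matches to the motifs named after them, and the last base of each line adjoins the start.
Slc44a2 (gained, GRCm38 chr9:21337578-21337827, plus strand): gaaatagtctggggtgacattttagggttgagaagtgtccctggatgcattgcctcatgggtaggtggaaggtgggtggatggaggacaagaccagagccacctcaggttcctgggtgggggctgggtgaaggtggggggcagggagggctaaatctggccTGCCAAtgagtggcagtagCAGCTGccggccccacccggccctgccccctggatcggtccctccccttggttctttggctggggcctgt
Emb (gained, GRCm38 chr13:117220323-117220572, plus strand): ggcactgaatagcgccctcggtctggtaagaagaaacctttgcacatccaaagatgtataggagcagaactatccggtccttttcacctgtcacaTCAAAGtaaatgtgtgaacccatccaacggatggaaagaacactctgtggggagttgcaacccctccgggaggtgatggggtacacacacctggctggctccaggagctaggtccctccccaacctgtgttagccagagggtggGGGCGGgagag
Thbs4 (gained, GRCm38 chr13:92794819-92795068, minus strand): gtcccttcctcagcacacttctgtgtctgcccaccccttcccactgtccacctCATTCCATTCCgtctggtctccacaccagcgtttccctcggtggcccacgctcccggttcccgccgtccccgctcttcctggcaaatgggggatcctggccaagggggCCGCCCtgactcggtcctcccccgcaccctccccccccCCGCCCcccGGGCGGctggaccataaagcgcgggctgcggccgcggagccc
Ccl8 (lost, GRCm38 chr11:82114935-82115184, plus strand): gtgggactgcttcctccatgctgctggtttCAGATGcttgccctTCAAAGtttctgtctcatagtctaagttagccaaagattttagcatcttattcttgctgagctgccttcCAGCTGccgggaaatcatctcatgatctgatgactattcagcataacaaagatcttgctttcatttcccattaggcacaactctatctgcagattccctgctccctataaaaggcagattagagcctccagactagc
Ifitm1 (lost, GRCm38 chr7:140967826-140968075, plus strand): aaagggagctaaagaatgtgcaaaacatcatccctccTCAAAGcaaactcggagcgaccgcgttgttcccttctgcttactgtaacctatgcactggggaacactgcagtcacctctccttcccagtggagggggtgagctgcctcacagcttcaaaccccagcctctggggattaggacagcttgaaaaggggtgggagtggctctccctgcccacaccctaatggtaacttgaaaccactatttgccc
The windows of Slc44a2, Emb and Ifitm1 belong to RefSeq starts inside the span that the count table gives for the gene, and those of Thbs4 and Ccl8 adjoin an end of that span. All but 1 of the 5 windows lay wholly inside the region, the Thbs4 window with 229 of its 250 bases. In the Slc44a2 window the capitals are an NFI site and an E-box, in the Emb window a TCF/LEF and an SP/KLF match, and in the Thbs4 window 2 overlapping TEAD and 3 SP/KLF matches. The Ccl8 window holds both E-box forms and a TCF/LEF match, and the Ifitm1 window a TCF/LEF match alone.

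Slc44a2 encodes a choline transporter-like protein. It stood at 96.7 and 76.6 CPM in uninjured and 444 and 280 CPM in week 4 libraries, a log2 fold change of 2.06 ± 0.27 (SE; edgeR adjusted p = 0.00213). Emb, which encodes the cell-surface glycoprotein embigin, stood at 8.10 and 4.29 against 26.3 and 66.9 CPM (2.91 ± 0.64, edgeR adjusted p = 0.0447). Thbs4, a pentameric matrix glycoprotein of tendon and heart, stood at 32.9 and 3.91 against 367 and 440 CPM and did not pass the test (4.45 ± 1.07, edgeR adjusted p = 0.107), though it was called with DESeq2, in a fit of the 4 libraries alone and without the filter on low counts. In all 3 genes both week 4 libraries lay above both uninjured ones, and Slc44a2 and Emb were chosen for being called. How many of all tested genes had no overlap between groups was not counted. Ccl8, a monocyte chemokine, stood at 16.3 and 21 CPM uninjured and 5.88 and 4.58 CPM at week 4 (−1.83 ± 0.43, edgeR adjusted p = 0.0447). Ifitm1, an interferon-induced membrane protein, stood at 16.9 and 31.9 against 1.61 and 2.34 CPM (−3.62 ± 0.74, edgeR adjusted p = 0.0247). Both genes, which were also chosen for being called, were lower in each week 4 library than in each uninjured one. The Slc44a2 call held with any 1 of the 4 libraries left out. The Ccl8 call was also lost in a fit of the 4 libraries alone, and the Ccl8 and Ifitm1 calls were each lost without any 1 of them (edgeR adjusted p of 0.111 to 0.397 and 0.0669 to 0.517), and the Emb call without either uninjured library or week 4 replicate 2 (0.149 to 0.453).

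Over all windows, base composition and motif content differed by class, as a description. Median GC content was 53.6% in the 132 windows with a gained region, 52.4% in the 189 with a lost one, 60% in those with a region in all 4 lists and 52.4% over all windows. The RUNX motif TGTGGT, on either strand, was present in 29 gained windows (22%), in 22 lost windows (11.6%), in 10.3% of windows open in all 4 lists and in 13.9% of all windows. AP-1 sites (TGANTCA) were found in 10.6% of gained, 7.94% of lost, 4.49% of always-open and 6.78% of all windows. TEAD sites (GGAATG) were found in 18.9%, 17.5%, 10.7% and 12.6%, and the E-box CAGCTG in 19.7%, 20.1%, 12.6% and 13.1%. SP/KLF sites (GGGCGG), typical of GC-rich promoters, were present in 28% of gained, 29.1% of lost, 57.0% of always-open and 33.0% of all windows. ETS sites (CCGGAAGT) were present in 1.52%, 1.06%, 5.37% and 2.9%. The other motifs were also searched on both strands, and their shares are given for gained, lost and all windows in that order. They were the second E-box form CATCTG (20.5%, 15.9%, 14.4%) and the homeobox core TAATTA (2.27%, 3.7%, 4.8%). The site AGATAA of GATA factors had 7.58%, 7.94% and 10.0%, and the NFI site TTGGCA 12.9%, 13.2% and 12.3%. Forkhead factors were searched as TGTTTAC (3.03%, 1.59%, 3.19%), C/EBP as TTGCGCAA (0%, 0%, 0.166%) and SMAD as GTCTAGAC (0.758%, 0%, 0.169%). SOX was searched as ACAATGG (6.06%, 1.59%, 3.03%) and TCF/LEF as TCAAAG (15.9%, 12.7%, 13.9%). NF-kB was searched as GGGANTTCC (0%, 2.12%, 1.44%), STAT as TTCCNGGAA (0.758%, 1.59%, 0.92%) and T-box factors as AGGTGTGA (3.03%, 0%, 1.13%). Nuclear receptors were searched as AGGTCA (15.2%, 15.3%, 14.1%), CREB as TGACGTCA (1.52%, 1.59%, 1.56%) and YY1 as CAAGATGGC (0%, 0%, 0.582%). No motif contains another whole, though matches may overlap in part. A match says only that the letters are in the window.

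The counts of gained and lost regions moved with the threshold put on the peaks. When each list was cut to its 63882 strongest peaks, the length of the shortest list, 84631 regions resulted, of which 4019 were gained (4.75%) and 5460 lost (6.45%). Of the 4267 gained regions 3310 (77.6%) were gained there too, and of the 5444 lost regions 4745 (87.2%) were lost there too. Gained regions made up 43.9% of gained plus lost regions with all peaks but 27.5% when only peaks with a −log10 q of 5 or more were kept, with 2292 gained and 6037 lost. Gained and lost peaks were weak ones. Ranked by p within its list, the median gained peak stood 74.4% and 70.6% of the way down the 2 week 4 lists, and the median lost peak 73.1% and 68.1% down the uninjured lists. Regions in all 4 lists had medians of 31.1% to 34.9%. Of the gained regions 10.5% and 15.4% reached the stronger 50% of the week 4 lists. The lists hold peaks down to a −log10 q of 1.52 to 1.87, and a region without a listed peak may still hold fragments, so gained and lost describe the lists and do not say that a site was closed. Asking for 2 lists in each group also sets the counts: with 1 uninjured list left out 5594 or 7775 regions were gained and 12520 or 9494 lost, and with 1 week 4 list left out 13556 or 11871 were gained and 8990 or 7557 lost, so that without week 4 replicate 1 or 2 gained regions outnumbered lost ones (60.1% and 61.1% of both classes).

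Gained and lost regions lay away from gene starts. A RefSeq start lay within 1000 bases of the centre of 64 gained regions (1.5%) and 120 lost regions (2.2%), against 18.9% of the regions in all 4 lists. The median distance to the nearest gene start was 24400 bases for gained, 39400 bases for lost and 13900 bases for regions in all 4 lists. Between genes lay 42.9% of gained, 49.8% of lost and 34.0% of the always-present regions. Gained and lost regions were also narrower, with median widths of 1010 and 958 bases against 2240 bases. On the X chromosome lay 2.23% of gained and 3.20% of lost regions, against 2.69% of all merged regions.

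The 6 libraries from day 3, day 7 and week 2 after MI were not used to choose the regions. In each of them taken singly most gained regions had a peak, 70.4% and 70.1% at day 3, 80.1% and 73.6% at day 7 and 74.5% and 77.4% at week 2. Lost regions had a peak in 75.7% and 72.1% of cases at day 3, but in 53.9% and 30.3% at day 7 and in 30.4% and 35.1% at week 2. With all peaks, lost regions were listed slightly more often than gained ones in both day 3 libraries and less often in every later library. The day 3 lists were the longest, with 105647 and 107774 peaks, so all lists were also cut to 63882 peaks. The shares for gained regions were then 38.2% and 42.0% at day 3, 58.0% and 58.7% at day 7 and 61.2% and 61.8% at week 2. Those for lost regions were 42.2% and 38.6%, then 28.1% and 16.4%, then 18.8% and 19.8%. In day 3 replicate 2 the share of lost regions was then below that of gained ones, and in replicate 1 above. For gained regions each later library lay above each day 3 library, and for lost regions below. Regions with a peak in a single week 4 list, a measure of how often weak peaks recur, had a peak in 16% to 19.4% of cases with equal numbers, and those in a single uninjured list in 9.88% to 21.6%. These single-list peaks were weaker than gained and lost ones. Their median ranks stood 87.3% to 89.7% of the way down the lists, against 68.1% to 74.4%, so the shares are not matched in strength.

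**Figure D1:**
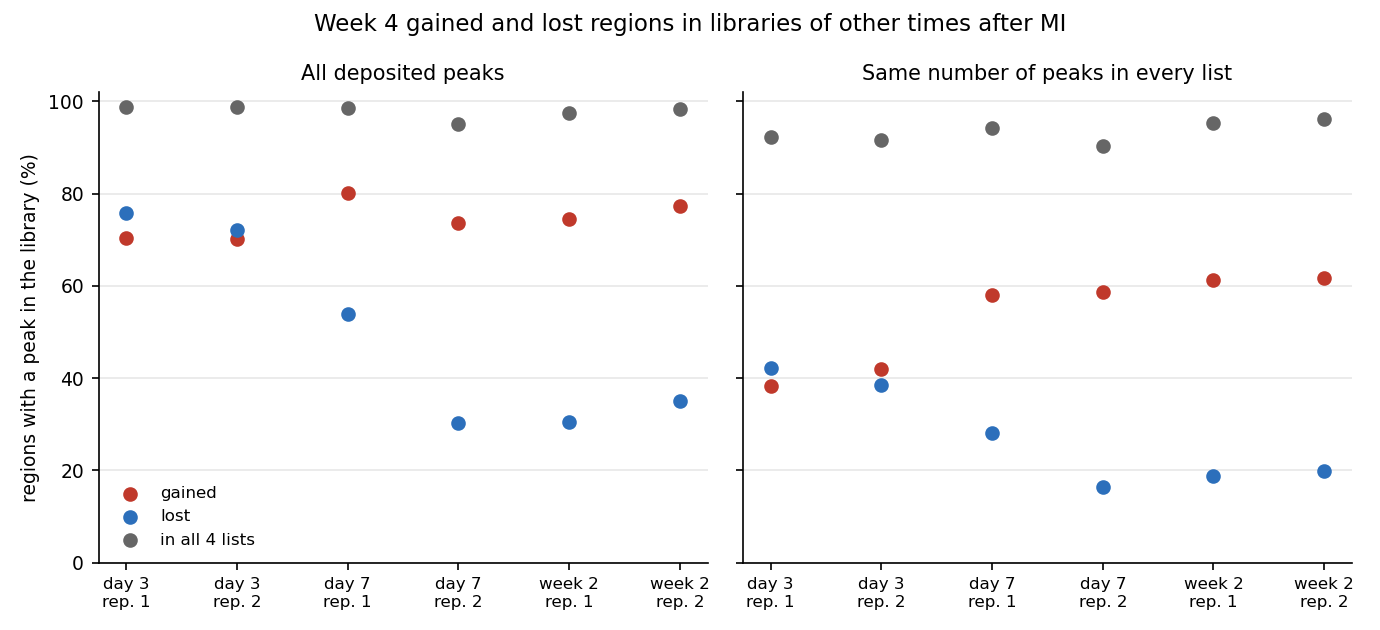
Share of regions (%, vertical axis) with an overlapping peak in each library from day 3, day 7 and week 2 after MI (horizontal axis), with all deposited peaks (left) and with 63882 peaks per list (right). Each point is 1 library: gained regions (red) run from 38.2% to 61.8% in the right panel, lost regions (blue) from 42.2% down to 16.4%, and regions in all 4 lists (grey) stay at 90.2% or more.

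Day 7 and week 2 each had 1 library with a code beginning with A and 1 with B, which lets the code letter be compared within a time. For gained regions the A library had the higher share at day 7 (80.1% against 73.6%) and the lower one at week 2 (74.5% against 77.4%). Lost regions had 53.9% in the A and 30.3% in the B library at day 7, and 30.4% against 35.1% at week 2. With equal peak numbers the gained shares were 58.0% (A) and 58.7% (B) at day 7, and 61.2% and 61.8% at week 2. The lost shares were then 28.1% and 16.4% at day 7, and 18.8% and 19.8% at week 2. A peak in all 6 libraries was found for 1848 gained regions (43.3%), and in none for 179 (4.19%). Among lost regions 601 (11%) had a peak in all 6 and 697 (12.8%) in none. Counted by time, 1970 lost regions (36.2%) had a peak in both day 3 libraries but in both libraries of no later time, the most frequent pattern among them, whereas the same pattern held for 281 gained regions (6.59%). These counts used all deposited peaks, of which the day 3 lists held most, and were not made with equal peak numbers. Lost regions with a peak at day 3 fell from 75.7% and 72.1% to 42.2% and 38.6% with equal numbers. Regions in all 4 lists had a peak in all 6 libraries in 92.3% of cases.

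The 8 strongest regions of each class were taken by the weaker of their 2 ranks, among those also found with equal peak numbers. Each of the 8 gained ones had a peak in all 6 other libraries. The strongest, GRCm38 chr9:35305223-35305586, is 364 bases wide, lies between genes 37524 bases downstream of the Rpusd4 start, and had fold enrichments of 29.1 and 37.5. The next, chr6:91646623-91648486, nearest to the untested predicted gene Gm45217, had 18.6 and 13.6, and the third, chr16:92619509-92624714 inside Runx1, 14.6 and 13.1. Another, chr2:30870342-30871940, lay inside Prrx2, a mesenchymal homeobox gene whose RNA did not pass the test, and had 14.3 and 15.9. The region chr7:112164132-112166015 lay 6017 bases from Dkk3 and had 15.7 and 12.3. Dkk3, a secreted glycoprotein of the Dickkopf family, stood at 489 and 439 CPM uninjured and 1270 and 1200 CPM at week 4 (log2 fold change 1.41 ± 0.25, edgeR adjusted p = 0.0116, and 0.0574 to 0.0877 without uninjured replicate 2 or week 4 replicate 1). The remaining 3 were nearest to Setd4, C1qtnf7 and Zfp469, at 365069, 77979 and 71865 bases, and the first therefore was given to no gene in the comparison with RNA. The RNA of these genes did not pass the test. Among the 8 strongest lost regions the first was chr8:124448814-124450678 (26.5 and 25, upstream of Pgbd5). Others were chr11:51342094-51344605 inside Col23a1, a transmembrane collagen gene (25.6 and 23.9), chr11:61245309-61246575 inside Aldh3a2 (24.7 and 22.4) and chr11:82130691-82132013 near Ccl8 (18.1 and 21.4). The last 4 were nearest to Bmp2 (431406 bases away), Guca2b (48855), Gm37630 (699620) and Cmc2 (89250), and those of Bmp2 and Gm37630 lie beyond the limit of 100000 bases used for the comparison with RNA. All 8 had a peak in both day 3 libraries, and 1 of them, that in Aldh3a2, in all 6.

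RNA-seq of cells sorted the same way asks whether genes near these regions differed in expression. Each region within 100000 bases of a gene start was given to the nearest gene, which placed 3536 gained and 4046 lost regions. Across 14968 tested genes, edgeR's quasi-likelihood test at an adjusted p of 0.05 called 277 genes higher (1.85%) and 71 lower (0.474%) at week 4. Of 2109 tested genes with a gained region 123 (5.83%) were higher and 14 (0.664%) lower. Of 2079 tested genes with a lost region 36 (1.73%) were lower and 33 (1.59%) higher. The median log2 fold change was 0.27 for genes with a gained region, −0.23 for genes with a lost region and 0.00 over all tested genes. Seen from the RNA, 44.4% of the higher genes had a gained region against 14.1% of all tested genes, and 50.7% of the lower genes had a lost region against 13.9%. Fewer cells of a type and less RNA per cell cannot be told apart in such bulk libraries. Whether the libraries within a group derive from different animals is not stated, and the p-values then reflect only how far these particular samples spread, which may be a technical spread.

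The shares grew with the number of regions. Among genes with gained and no lost regions, 4.43% of 1309 genes with 1 region, 7.66% of 274 with 2 and 17.4% of 121 with 3 or more were higher, with median log2 fold changes of 0.22, 0.55 and 0.86. Among genes with lost and no gained regions, 0.935% of 1283, 2.86% of 280 and 9.01% of 111 were lower, with medians of −0.20, −0.48 and −0.72. Genes with a region in all 4 lists and neither kind of change were higher in 1.42% and lower in 0.257% of 8945 cases, with a median of 0.00. Most genes with a gained or a lost region were called in neither direction. Fewer genes were called with any 1 RNA library left out, 43 to 81 higher among genes with a gained region (1.96% to 3.67%, against 0.482% to 1.14% of all tested) and 10 to 25 lower among genes with a lost region (0.45% to 1.13%, against 0.131% to 0.312%). The lowest counts came without uninjured replicate 2 and without week 4 replicate 2, respectively.

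**Figure D2:**
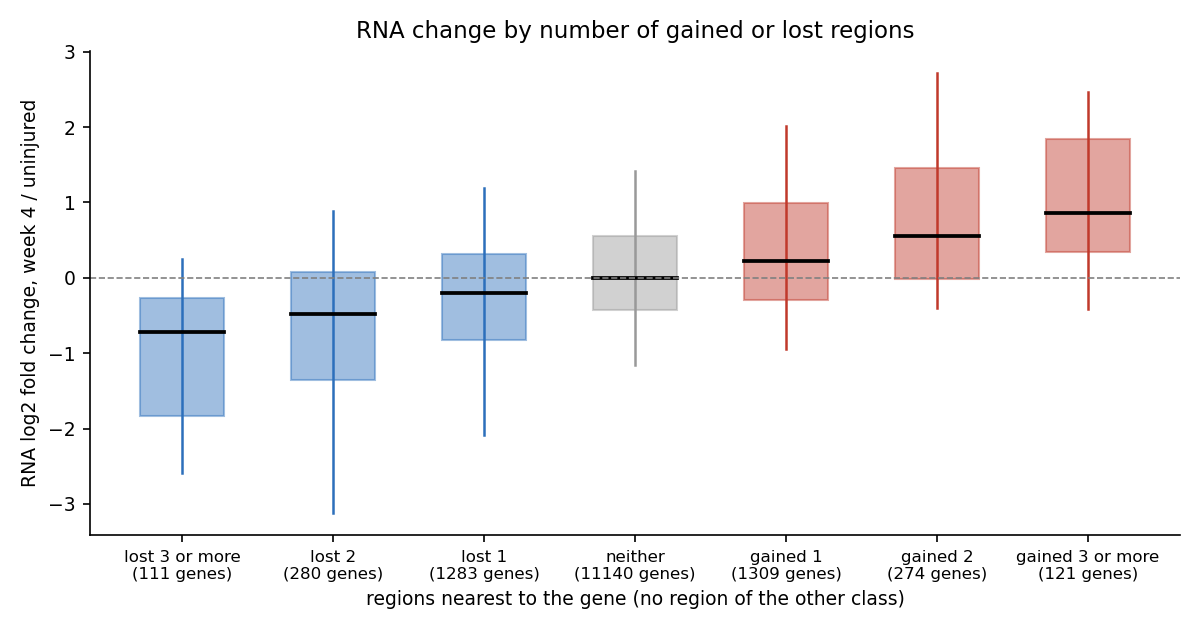
RNA log2 fold change, week 4 over uninjured (vertical axis), of tested genes grouped by the number of lost (blue) or gained (red) regions nearest to them (horizontal axis, with the number of genes); grey holds genes with neither. Boxes span the middle 50% of genes with the median as a black bar, lines run from the 10th to the 90th percentile, and the medians run from −0.72 (3 or more lost) to 0.86 (3 or more gained).

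Runx1 had more gained regions than any other gene. It encodes a DNA-binding factor best known from blood formation, which activated fibroblasts also switch on. Its RNA stood at 18.1 and 7.50 CPM in uninjured and 82.4 and 96.7 CPM in week 4 libraries, with no overlap (log2 fold change 2.80 ± 0.36, edgeR adjusted p = 0.00213). Of gained regions 12 and of lost regions 1 were nearest to it, and all 12 were also gained with equal peak numbers. In the 325 kb around the more downstream of its 2 RefSeq starts, at position 92697329 of chromosome 16, peaks covered 24 and 21.2 kb in the uninjured lists and 98.6 and 98.5 kb in the week 4 lists. The 6 other libraries had 78.6 to 95.0 kb, so every library after MI lay above both uninjured ones. A week 4 peak that touches an uninjured peak does not count as gained, whatever its width. The widest gained region of the locus, chr16:92634850-92641778, had fold enrichments of 5.53 and 6.04 at week 4 and a peak in all 6 other libraries.

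**Figure D3:**
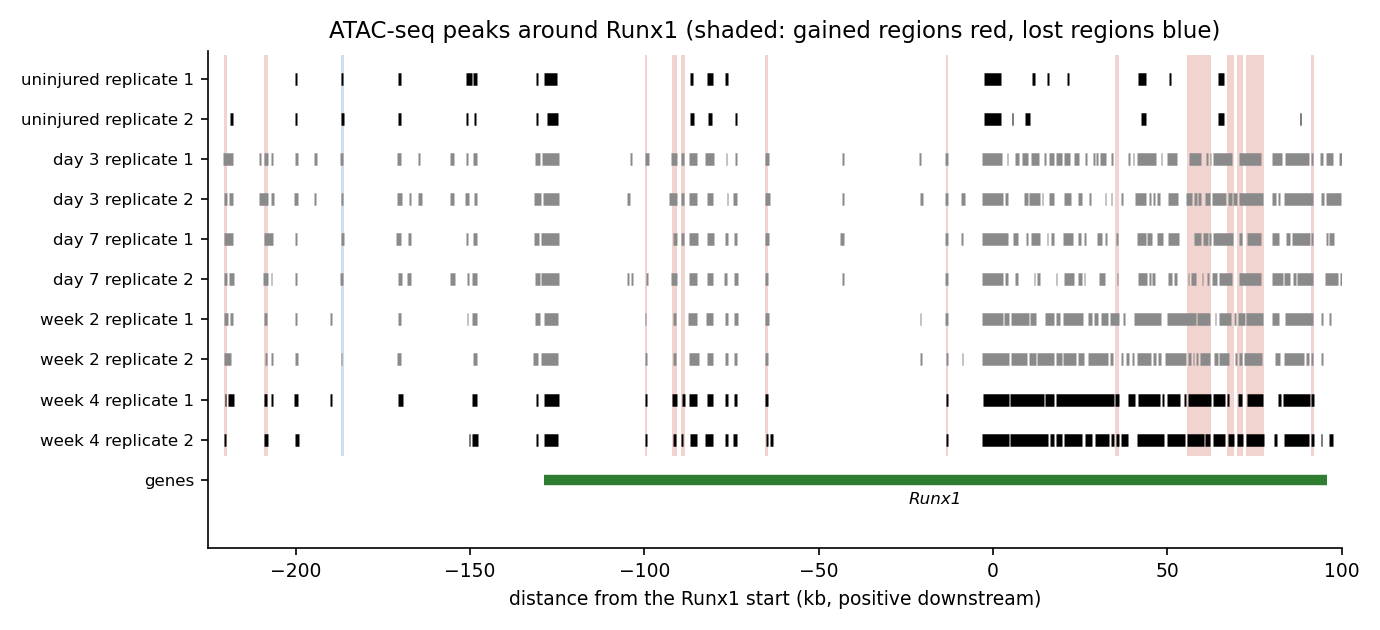
Peaks of all 10 ATAC-seq libraries (bars, 1 row per library; black for the 4 libraries compared, grey for the others) by distance in kb from the more downstream Runx1 start (horizontal axis, positive downstream), with the gene in green. Red shading marks 13 gained regions (12 nearest to Runx1, 1 to Clic6) and blue shading 1 lost region; peaks covered 98.6 and 98.5 kb of the window at week 4 against 24 and 21.2 kb in uninjured libraries.

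The 10 genes called higher with most gained regions were Runx1, Fn1, Myo1d, Tns3, Palld, Lhfpl2, Mical2, Adarb1, Erg and Lox. Fibronectin (Fn1), the matrix protein on which collagen is assembled, had 9 gained regions, none lost, and 175 and 124 CPM against 932 and 1030 CPM (2.72 ± 0.24, edgeR adjusted p = 9.46e-05). All but 1 of the 9 were centred inside the gene and the other at its end, and each had a peak in 5 or 6 of the other libraries. The unconventional myosin gene Myo1d had 7 gained and 1 lost region and rose from 14.7 and 15.8 to 122 and 77.5 CPM (2.71 ± 0.43, edgeR adjusted p = 0.00632). Tns3, a focal adhesion protein that links integrins to actin, had 7 gained regions and 15.5 and 10.1 against 78.7 and 63.0 CPM (2.47 ± 0.34, edgeR adjusted p = 0.0029). Palld, an actin cross-linking protein of stress fibres, had 7 gained regions and 51.1 and 17.3 against 124 and 155 CPM (2.03 ± 0.43, edgeR adjusted p = 0.0352). Myo1d, Tns3 and Palld all encode proteins of the actin cytoskeleton or its adhesions. Mical2, which oxidises actin in the nucleus, had 6 gained regions and 30.1 and 31.5 against 86.4 and 79.3 CPM (1.43 ± 0.26, edgeR adjusted p = 0.0132), and Lhfpl2 6 and 66.6 and 53.2 against 136 and 192 CPM (1.45 ± 0.30, edgeR adjusted p = 0.0247). The RNA-editing enzyme gene Adarb1 had 5 gained regions and 11.8 and 8.42 against 57.2 and 70.4 CPM. Erg, an ETS factor best known from endothelium and cartilage, had 4 gained regions and 0.373 and 1.18 against 18.5 and 17.3 CPM (4.52 ± 0.63, edgeR adjusted p = 0.0031). Lysyl oxidase (Lox), which cross-links collagen, had 4 gained regions and 54.7 and 38.6 against 483 and 770 CPM (3.75 ± 0.31, edgeR adjusted p = 6.08e-05). With equal peak numbers 7 of the 9 Fn1 regions were gained, 5 of 7 for Myo1d, 6 of 7 for Tns3, 3 of 6 for Mical2, 4 of 5 for Adarb1 and 3 of 4 for Erg, and all of those of Palld, Lhfpl2 and Lox. In none of the 10 genes, which were chosen for being called, did the groups overlap. The Palld call was also lost in a fit of the 4 libraries alone. The calls of Palld (without uninjured replicate 2 or either week 4 library, 0.0717 to 0.193), Lhfpl2 (without uninjured replicate 2 or week 4 replicate 2, 0.159 to 0.206) and Mical2 (without any 1 library, 0.0507 to 0.109) were lost when a library was left out.

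**Figure D4:**
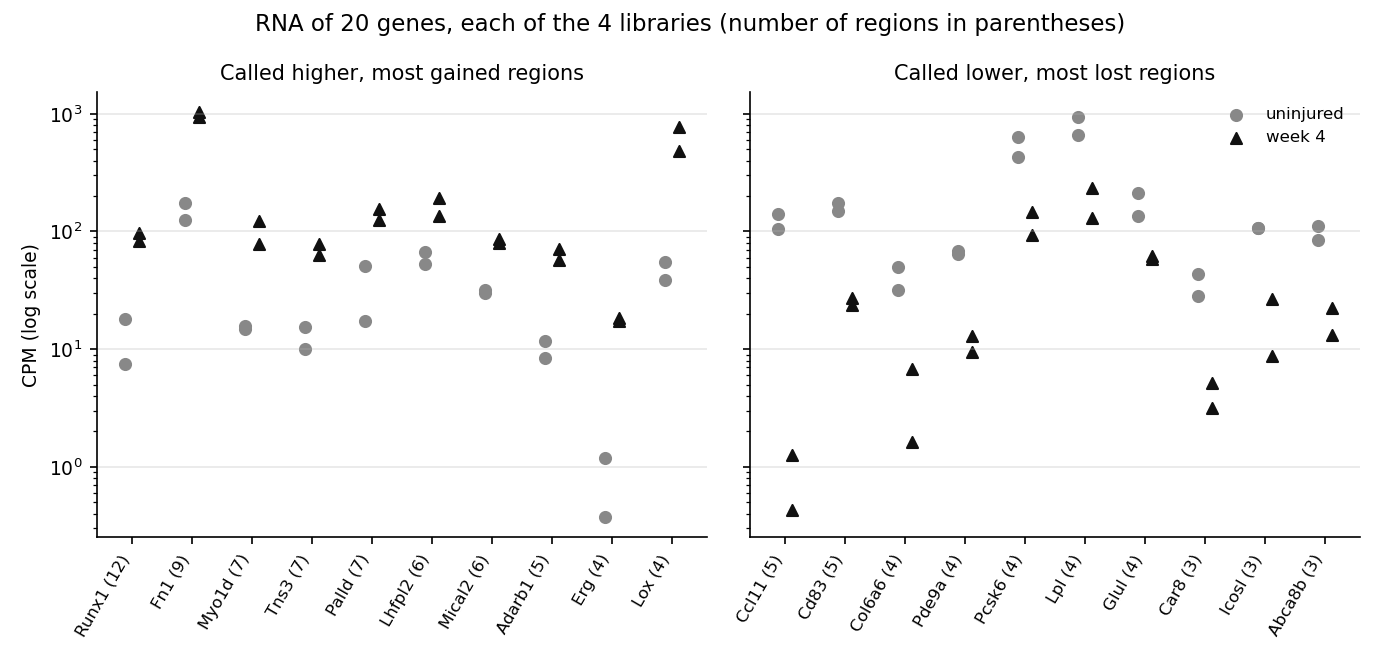
RNA level in CPM (vertical axis, log scale) in each of the 2 uninjured (grey circles) and 2 week 4 libraries (black triangles) for the 10 genes called higher with most gained regions (left) and the 10 called lower with most lost regions (right), with the number of those regions in parentheses. Week 4 and uninjured libraries do not overlap in any of the 20 genes, which were chosen for being called.

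Genes of the fibrillar matrix, which give the scar its tensile strength, rose in 13 of 20 cases (median log2 fold change 1.66, against 0.00 over all tested genes), and 10 of the 20 had a gained region. Of the 341 regions nearest to them 6.74% were gained and 1.47% lost, against 4.41% and 5.05% of all regions within reach of a gene. Fn1 alone held 9 of the 23 gained regions of this list, so the gained share leans on 1 gene. Over all tested genes 14.1% had a gained and 13.9% a lost region, 1.85% rose and 0.474% fell. All these shares are also those to set beside the gene lists below. Periostin (Postn), a matrix protein of activated fibroblasts, had 2 gained regions and 630 and 431 CPM against 3210 and 2690 CPM (2.47 ± 0.32, edgeR adjusted p = 0.00213). Col12a1, a collagen that decorates fibrils, had 2 gained regions and 13.1 and 16.1 against 109 and 127 CPM (3.01 ± 0.29, edgeR adjusted p = 0.000284). No week 4 library of either gene, both of them called, reached down to the uninjured level. The main fibril collagen genes had neither kind of region. Col1a1 stood at 903 and 415 against 6050 and 6260 CPM (3.22 ± 0.44, edgeR adjusted p = 0.00348) with 9 regions, all in all 4 lists, and Col3a1 at 2040 and 810 against 5800 and 6690 CPM (2.13 ± 0.39, edgeR adjusted p = 0.0153) with 10 of 14 in all 4 lists. Their RNA rose beside peaks that were already listed in uninjured cells. The Col3a1 call was lost without either week 4 library (0.0581 and 0.0768). Col5a1, with 2 gained regions, rose from 87.6 and 61.1 to 143 and 174 CPM, a call that ended without uninjured replicate 2 or either week 4 library (0.0981 to 0.436).

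Collagen-processing genes rose in 7 of 16 cases (median 0.98), and 5 had a gained region. P4ha3, a subunit of a collagen prolyl hydroxylase, had 1 gained region and 3.09 and 2.84 against 65.7 and 51.0 CPM (4.29 ± 0.36, edgeR adjusted p = 7.56e-05). Loxl1, a lysyl oxidase of elastic fibres, had 1 gained region 903 bases from an end of the gene and 490 and 245 against 2290 and 1830 CPM, a call lost without any 1 library (0.105 to 0.397). Adamts2, the procollagen N-proteinase, had 2 gained and 1 lost region (1 and 0 with equal peak numbers) and 408 and 211 against 788 and 774 CPM, a call that ended without uninjured replicate 2 or either week 4 library (0.149 to 0.361) and in a fit of the 4 libraries alone. Of the 120 regions of these genes 7.5% were gained and 1.67% lost, and Lox alone held 4 of the 9 gained ones.

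Genes of cartilage, tendon and the late scar rose in 10 of 29 tested cases (median 2.16), and 10 of 30 had a gained region. Of their 169 regions 10.1% were gained and 1.78% lost. Comp, a pentameric protein that binds collagen in cartilage and tendon, had 3 gained regions and 86.3 and 61.4 against 3840 and 3040 CPM (5.54 ± 0.62, edgeR adjusted p = 0.00276). Of these 3 regions, which lie within the neighbouring Crtc1, chr8:70385428-70390328 had a peak in both libraries of day 3 and of week 2, chr8:70390790-70392175 in no other library and chr8:70407571-70409448 in 1. Cilp, a matrix protein of cartilage and scar, had 2 gained regions inside the gene and 164 and 132 against 1800 and 1510 CPM (3.48 ± 0.66, edgeR adjusted p = 0.0348). Col8a1, a short-chain network collagen, had 3 gained regions inside the gene and 289 and 235 against 1630 and 1210 CPM (2.44 ± 0.32, edgeR adjusted p = 0.00245). All 3 genes, each of them called, had higher values in both week 4 libraries. Without either uninjured library the Comp call was lost (0.073 and 0.145), and without any 1 library the Cilp call (0.188 to 0.592). Cilp2 had 1 gained region and 2.13 and 0 against 99.3 and 40.3 CPM and did not pass (edgeR adjusted p = 0.152), but was called in a fit of the 4 libraries alone, without the filter on low counts and without uninjured replicate 1. Its region was not gained with equal peak numbers, and of the 3 Comp regions 2 were. Fmod, a small proteoglycan that controls fibril thickness, had neither kind of region and rose from 120 and 110 to 1300 and 1090 CPM, a call lost without any 1 library (0.0637 to 0.304). The tendon gene Tnmd also had neither and rose from 5.06 and 2.09 to 33.7 and 70.5 CPM, a call that ended without uninjured replicate 2 (0.0868). Chad and the tendon factor Scx had neither and did not pass (edgeR adjusted p = 0.491 and 0.502), though Chad was called in a fit of the 4 libraries alone and without the filter on low counts. Sox9, the cartilage factor, had 2 gained and 1 lost region and did not differ in RNA by the test (403 and 523 against 497 and 483 CPM, edgeR adjusted p = 0.959).

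Contractile genes had 14 gained and no lost regions among 129 (10.9%), at 6 of 18 genes, and 2 of 18 rose, Palld and Smtn. Palld alone held 7 of the 14 gained regions. Smtn, a smooth muscle actin-binding protein, had 2 gained regions and 40.1 and 35.2 against 161 and 115 CPM (1.87 ± 0.30, edgeR adjusted p = 0.00707), a call lost without uninjured replicate 2 or week 4 replicate 1 (0.0581 and 0.0604). Myl9, with 2 gained regions, stood at 153 and 81.5 against 130 and 230 CPM, and Myh11, with 1, at 49.7 and 22 against 41.2 and 74.5 CPM. The groups overlapped in both genes. Acta2, smooth muscle actin and the usual marker of myofibroblasts, had neither kind of region and did not pass the test, at 191 and 91.9 against 302 and 469 CPM (edgeR adjusted p = 0.165), but was called with DESeq2 and without the filter on low counts.

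Among 24 genes of TGF-beta and BMP signalling, 12 had a gained and 11 a lost region, with 21 gained and 17 lost of 303 (6.93% and 5.61%), and 3 of 22 tested genes rose. Over all tested genes 14.1% had a gained and 13.9% a lost region, and 1.85% rose. Of all regions within reach of a gene 4.41% were gained and 5.05% lost. Ltbp2, a matrix protein of the latent TGF-beta binding family, had 3 gained regions and 16.7 and 9.27 against 473 and 302 CPM (4.90 ± 0.36, edgeR adjusted p = 3.22e-05). Tgfb3, a ligand, had 1 gained region and 105 and 85.8 against 578 and 622 CPM, and follistatin (Fst), which binds activins, 1 gained region and 14.2 and 10.6 against 60 and 57.3 CPM, a call that ended without uninjured replicate 2 (0.0834). None of these 3, which are the called genes of the list, showed overlap between groups. The regions of Ltbp2 and Fst were also gained with equal peak numbers, and that of Tgfb3 was not. Smad6, an intracellular inhibitor of BMP signalling, alone held 8 of the 21 gained regions of the list and no lost one. Its RNA stood at 3.41 and 4.61 against 10.2 and 12.2 CPM and missed the threshold (1.48 ± 0.94, edgeR adjusted p = 0.576). With equal peak numbers 5 of the 8 were gained. The receptor genes Tgfbr1 and Tgfbr2 each had 1 gained region and 3 and 2 lost ones, and no RNA call; with equal peak numbers neither gained region remained, and 1 and 2 of the lost ones did. Of 18 genes of secreted Wnt modulators and ligands, 5 had a gained and 4 a lost region, 4.93% and 4.23% of 142 regions, and 3 rose. Frzb, a secreted Wnt antagonist, had 1 gained region and 190 and 194 against 760 and 670 CPM (1.90 ± 0.21, edgeR adjusted p = 0.000725). Sfrp2, another secreted Wnt-binding protein, had 1 lost and no gained region, yet rose from 84.4 and 132 to 2190 and 2910 CPM (4.56 ± 0.35, edgeR adjusted p = 3.22e-05). That lost region was 1 of 10 nearest to Sfrp2, lay 37089 bases upstream and had a peak in 4 of the 6 other libraries.

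Of 40 fibroblast transcription factor genes 13 had a gained and 12 a lost region, 5.89% and 3.99% of 526 regions. Runx1 alone held 12 of the 31 gained regions. Of the 40 genes 2 rose and 1 fell (Creb5, with both kinds). The 2 were Runx1 and Meox1, a homeobox factor of fibroblast activation, which had 1 gained region and 276 and 254 against 561 and 541 CPM (1.05 ± 0.20, edgeR adjusted p = 0.0183), a call lost without any 1 library (0.0761 to 0.204). Foxp1, a forkhead factor, had 5 gained regions, 3 with equal peak numbers, and 115 and 127 against 149 and 189 CPM and did not pass (edgeR adjusted p = 0.336). Tcf21 itself had 1 lost region, chr10:22884867-22886069, 65325 bases upstream, with fold enrichments of 8.43 and 10.0 in uninjured lists and a peak in 1 other library, from day 3. Its RNA stood at 23.1 and 31.6 against 23.5 and 22.5 CPM (−0.25 ± 0.53, edgeR adjusted p = 0.932). Runx2 had 1 lost region and no RNA call. Gata4, Hand2 and Wt1 had neither kind of region, and Tbx20 had 1 of each, neither of them with equal peak numbers. Gata4 RNA did not pass (edgeR adjusted p = 0.109), but was called with DESeq2 and without the filter on low counts.

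Several lost regions lay at chemokine genes. Ccl11, eotaxin, an attractant of eosinophils, had 5 lost and no gained regions, all 5 also lost with equal peak numbers. Its RNA stood at 104 and 141 CPM in uninjured and 0.433 and 1.27 CPM in week 4 libraries (−7.13 ± 0.78, edgeR adjusted p = 0.00105), and the call held with any 1 library left out. Of the other lost regions 3 were nearest to Ccl8, 1 of them the printed promoter, and 1 to Ccl12. In a window of 110 kb around the Ccl8 start (position 82115185 of chromosome 11), peaks covered 26.8 and 26.7 kb in uninjured and 10.1 and 9.88 kb in week 4 lists. Day 3 libraries had 30.0 and 33.5 kb, day 7 libraries 17.3 and 10.8 kb and week 2 libraries 11.2 and 10.9 kb. In these lengths day 3 lay above uninjured and every later library below. They were not adjusted for the length of the lists. Whole day 3 lists covered 154 and 174 Mb, against 111 and 118 Mb for uninjured ones, so the day 3 lengths cannot be read as a rise at this locus. The peaks at Ccl2 and Ccl7 were listed in all 10 libraries. Ccl7 had no lost region and 153 and 262 against 34.5 and 44.0 CPM (−2.40 ± 0.43, edgeR adjusted p = 0.0187), a call lost without uninjured replicate 2 or either week 4 library (0.113 to 0.195). Ccl2 stood at 61.1 and 161 against 54.6 and 50.2 CPM (edgeR adjusted p = 0.314), and Ccl12 at 0.213 and 1.45 against 0.433 and 1.51 CPM (edgeR adjusted p = 0.98).

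**Figure D5:**
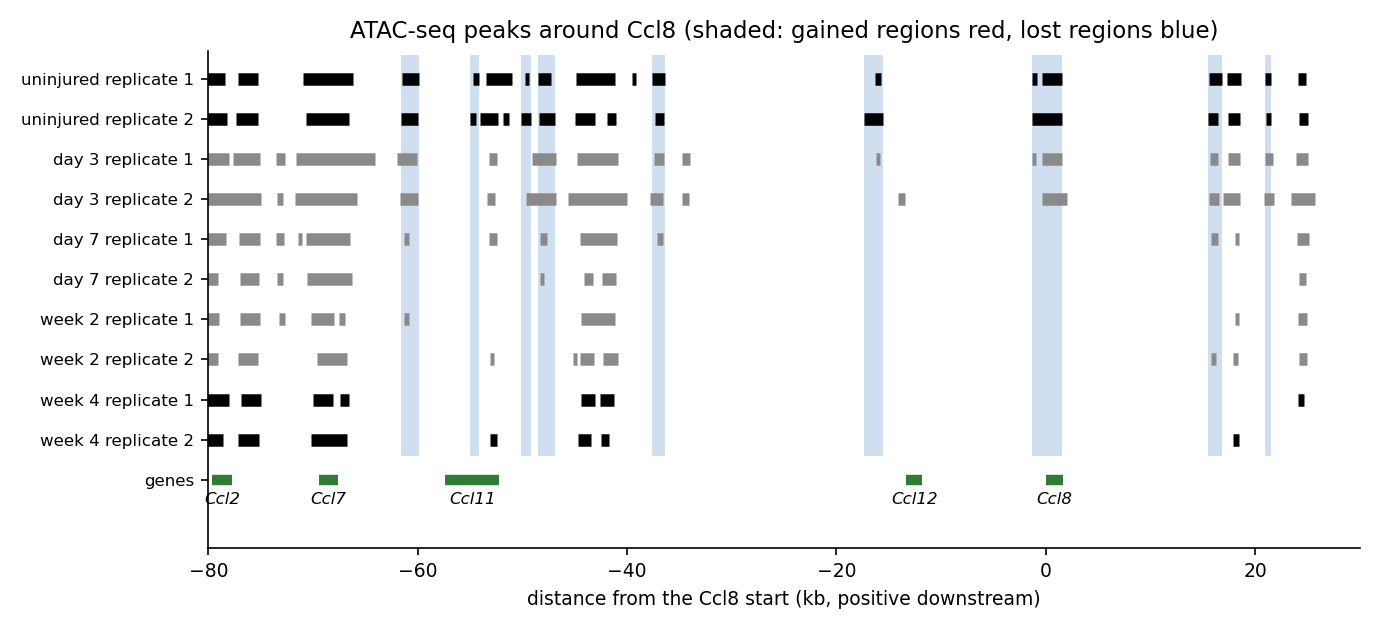
Peaks of all 10 ATAC-seq libraries (bars, 1 row per library; black for the 4 libraries compared, grey for the others) by distance in kb from the Ccl8 start (horizontal axis, positive downstream), with chemokine genes in green. Blue shading marks 9 lost regions, most of which still had peaks at day 3; peaks covered 26.8 and 26.7 kb in uninjured and 10.1 and 9.88 kb in week 4 lists.

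The 10 genes called lower with most lost regions were Ccl11, Cd83, Col6a6, Pde9a, Pcsk6, Lpl, Glul, Car8, Icosl and Abca8b. Cd83, an immunoglobulin-family membrane protein, had 5 lost regions and 149 and 173 against 23.9 and 27.4 CPM (−2.65 ± 0.39, edgeR adjusted p = 0.00397). Its call and that of Ccl11 held with any 1 library left out. With equal peak numbers 3 of the 4 regions of Pcsk6 and of Glul were lost, and all of those of the other 8 genes. The others had 3 or 4 lost regions each. Col6a6, a chain of collagen VI, stood at 49.6 and 32 against 1.61 and 6.82 CPM, and the cyclic GMP phosphodiesterase gene Pde9a at 68.6 and 64.1 against 12.9 and 9.50 CPM. Lipoprotein lipase (Lpl) stood at 942 and 664 against 129 and 233 CPM (−2.15 ± 0.41, edgeR adjusted p = 0.0218), and the proprotein convertase gene Pcsk6 at 429 and 639 against 147 and 92.8 CPM (−2.16 ± 0.37, edgeR adjusted p = 0.011). Glul, glutamine synthetase, stood at 136 and 212 against 61.7 and 58.6 CPM. Icosl, a ligand of a T cell co-stimulator, stood at 106 and 107 against 26.7 and 8.77 CPM, Car8 at 28.3 and 43.5 against 5.20 and 3.17 CPM, and the transporter gene Abca8b at 84.8 and 111 against 22.2 and 13.1 CPM. In all 10 genes, which were chosen for being called, both week 4 libraries lay below both uninjured ones. The calls of Pde9a and Car8 were lost without any 1 library (0.053 to 0.118 and 0.101 to 0.483), those of Col6a6 and Lpl without either uninjured library or week 4 replicate 1 (0.0631 to 0.194 and 0.0604 to 0.16), that of Icosl without either uninjured library or week 4 replicate 2 (0.0628 to 0.15), those of Glul and Abca8b without uninjured replicate 2 or either week 4 library (0.12 to 0.234 and 0.0694 to 0.191) and that of Pcsk6 without uninjured replicate 2 or week 4 replicate 2 (0.0631 and 0.0953).

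Genes of resident fibroblasts had 28 lost and 5 gained regions among 216 (13.0% and 2.31%), with a lost region at 8 of 22 genes. Of the 22 genes 3 fell (Ccl11, Lpl and Adh1), and the median log2 fold change was −0.65. Smoc2, a calcium-binding matrix protein, had 11 lost regions, more than any other gene, and 2 gained ones. Its RNA stood at 2550 and 3890 against 1360 and 687 CPM and missed the threshold (−1.65 ± 0.53, edgeR adjusted p = 0.193). All 11 were also lost with equal peak numbers, and 10 of them had a peak in at least 1 day 3 library. Scara5, a ferritin receptor, had 4 lost regions and 444 and 519 against 100 and 76.2 CPM (−2.45 ± 0.93, edgeR adjusted p = 0.328). Week 4 libraries of both genes lay below uninjured ones. Smoc2 was called with DESeq2 and without the filter on low counts, and Scara5 in a fit of the 4 libraries alone and without that filter. With equal peak numbers 3 of the 4 Scara5 regions were lost. Of 10 genes of adventitial fibroblasts, which lie around vessels, 4 had a lost and none a gained region, and 1 fell. Over all tested genes 13.9% had a lost and 14.1% a gained region, and 0.474% fell. Of their 52 regions 9.62% were lost, against 5.05% of all regions within reach of a gene. The gene that fell, Sema3c, a guidance molecule, had 2 lost regions and 264 and 218 against 65.8 and 45.2 CPM (−2.12 ± 0.30, edgeR adjusted p = 0.00313). Dpp4, a cell-surface peptidase, had 1 lost region and 98.4 and 98.1 against 4.39 and 2.19 CPM and missed the threshold (−4.90 ± 1.37, edgeR adjusted p = 0.152), but was called with DESeq2, in a fit of the 4 libraries alone and without the filter on low counts. Akap12, a scaffold protein of kinase A, had 10 lost and 1 gained region and 282 and 368 against 164 and 115 CPM (−1.22 ± 0.36, edgeR adjusted p = 0.119); it was singled out after its values were seen. Pi16 had neither kind and 2200 and 2210 against 3080 and 2980 CPM (edgeR adjusted p = 0.784).

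Some called genes had a region of the class opposite to their RNA change, alone or beside regions of the other class. Of tested genes with a gained region 0.664% were lower, against 0.474% of all tested. Of those with a lost region 1.59% were higher, against 1.85%. Qpct, glutaminyl cyclase, had 4 gained and no lost regions, 3 of them 9681 to 25059 bases from an end of the gene, yet fell from 440 and 446 to 195 and 164 CPM (−1.30 ± 0.29, edgeR adjusted p = 0.0348). Spry4, an inhibitor of receptor tyrosine kinase signalling, had 1 gained region and fell from 70.0 and 92.2 to 17.3 and 20.1 CPM. Enpp2, which makes lysophosphatidic acid, had 1 gained and 1 lost region and fell from 550 and 586 to 109 and 80.3 CPM, and Abca8b had 1 gained beside its 3 lost regions. P3h2 and Lmcd1 rose with 2 lost regions each beside 2 and 3 gained ones, and Col14a1 rose, from 418 and 254 to 767 and 669 CPM, with 2 lost and 1 gained. With equal peak numbers the gained region of Col14a1 and the lost one of Enpp2 were not found. These calls were lost without any 1 library for Qpct (0.0736 to 0.218), Enpp2 (0.0591 to 0.174) and P3h2 (0.072 to 0.146), without uninjured replicate 2 or either week 4 library for Spry4 (0.0831 to 0.137) and Col14a1 (0.0932 to 0.427, and also in a fit of the 4 libraries alone), and without uninjured replicate 2 or week 4 replicate 1 for Lmcd1 (0.0906 and 0.126). Cthrc1, a secreted protein of activated fibroblasts, had neither kind of region and rose from 15.5 and 10.2 to 255 and 324 CPM (4.49 ± 0.31, edgeR adjusted p = 2.37e-05).

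Genes expected to vary little and markers of other cells were counted in the same way, beside 4.41% gained and 5.05% lost of all regions within reach of a gene. Of 12 housekeeping genes 3 had a gained region, 7 of 53 regions (13.2%), and none had a lost one. Of the 7 regions 5 were nearest to Ywhaz, 33290 to 78799 bases away, and the RNA of Ywhaz and of Polr2a, which had 1 gained region, did not pass the test (edgeR adjusted p = 0.951 and 0.411). The share of gained regions in this list was above that in each matrix list. The 7 macrophage markers had only 3 regions in any list, 1 of them in all 4 lists and none gained or lost, too few for a share. Their RNA summed to 55.2 and 31.2 CPM uninjured and 91.4 and 155 CPM at week 4, with Adgre1 and C1qa called higher. Endothelial markers had 3 gained of 53 regions (5.66%), 1 each at Pecam1, Cdh5 and Emcn (only that of Emcn with equal peak numbers), and no lost ones. The RNA of these 3 did not pass (edgeR adjusted p = 0.939, 0.222 and 0.946), and the markers summed to 184 and 143 against 196 and 221 CPM. Pericyte and smooth muscle markers had 5 gained regions at 4 of 6 genes and 4 lost ones at 2, 11.9% and 9.52% of 42 regions. They summed to 860 and 377 against 316 and 463 CPM, with Cspg4 called higher. The 7 fibroblast markers had 2 gained and 3 lost of 80 regions (2.5% and 3.75%). Col1a1 and Col1a2 were called higher and none lower, while the median log2 fold change of the 7 was −0.54. The 5 T and B cell markers had 1 gained of 5 regions and summed to 0.161 to 2.53 CPM, with Cd3e, Cd3g, Ms4a1 and Trac under 1 CPM in all 4 libraries. The 7 cardiomyocyte markers had 1 lost of 14 regions, at Ttn, and summed to 70.0 and 92.8 against 42.6 and 59.9 CPM, with Nppa called higher. The 5 epicardial and mesothelial markers had 2 gained and 1 lost of 11 regions and 3.16 to 7.94 CPM. The 4 Schwann markers had 1 lost of 5 regions and 0.107 to 4.32 CPM. Erythroid genes had no region in any list and summed to 2670 and 3870 against 1270 and 1550 CPM. The part of any of these cells in the gained and lost regions was not tested.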

How the data were processed

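ATAC-seq peaks and RNA-seq counts of sorted mouse cardiac fibroblasts were used as deposited; no reads were processed here. Tools named in the submitters' processing notes are MACS2, Bowtie2 2.3, STAR 2.5.3a, Trim Galore 0.6, DESeq2 and FastQC, and the builds there are GRCm38 and mm10, in no stated role. Peak thresholds, counter and strandedness are unstated in these sources. For every deposited peak there is a score, a fold enrichment (a ratio over local background), a −log10 p and a −log10 q; lists were made per library, and the files give no reads per region, so that depth is unknown. Peaks were merged with Python 3.11.15 (pandas 2.3.3), and cut to equal numbers by −log10 p. The deposited gene table holds expected counts, some with decimals, which were rounded and tested with edgeR 4.0.16 (R 4.3.3): quasi-likelihood, TMM, filterByExpr, all 10 RNA libraries in 1 fit, Benjamini-Hochberg adjusted p of 0.05. Log2 fold changes come from that fit. On simulated data, with 13801 genes of this design, 28.1% of 4-fold and 2.13% of 2-fold changes were recovered with 0 false calls among 27. Gene starts came from RefSeq (GRCm38.p6) for 16609 genes; for 8838 others both ends given in the count table were used. Replicate numbers did not pair the RNA libraries (correlations of deviations from −0.0181 to 0.0288).

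Regions, members and gene lists were chosen with earlier results of these data known. Named genes were the 10 called higher with most gained and the 10 called lower with most lost regions. To these came the 4 called in each direction with most regions of the opposite class, and up to 4 per list with most regions. A further 24 genes were reported whatever their result. Genes of the printed promoters, of the Ccl window, Dkk3, Tgfb3, Fst, Akap12 and the markers were added after values were seen. Exon and intron positions, sequences, base composition and motifs of regions away from starts were not analysed here.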

Additional observations from a re-analysis of the deposited data

Results flagged for a closer look

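Peaks outside the assembled chromosomes were not used in the comparison. On unplaced sequences the week 4 lists held 50 peaks (replicate 1) and 61 peaks (replicate 2), both above the 32 and 40 peaks of the uninjured lists, although the whole lists were of similar length. The longer lists of the other times held 43 and 34 (day 3), 57 and 65 (day 7) and 42 and 48 (week 2). Counts above the uninjured ones were thus not particular to week 4. No test was made of this difference.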

How the results depend on the processing

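Counts of regions fell with fewer peaks per list, to 2116 gained and 2448 lost with 30000 peaks and 469 and 649 with 10000 (the latter chosen after seeing the data). With −log10 q of 5 or more, 2292 were gained and 6037 lost. With 1 ATAC library left out, 5594 to 13556 were gained and 7557 to 12520 lost, since a class then needs 1 list fewer; gained regions outnumbered lost ones without week 4 replicate 1 or 2 (60.1% and 61.1% of both classes, against 43.9%). Requiring an overlap of 50% of the shorter peak, merging within 500 bases, leaving out X or using 63882 peaks kept both counts within 1.5 times. For RNA, DESeq2 called 588 genes higher and 271 lower, a fit of the 4 libraries alone 465 and 188, and no filter on low counts 685 and 286. The replicate block gave 282 and 80, and RLE scaling 283 and 79. With 1 RNA library left out, 77 to 183 were higher and 21 to 50 lower; the lone library of a group is then assumed to vary like the other groups. Genes with a gained region that were higher numbered 231 with DESeq2, 53 within 10000 bases, 120 with the replicate block and 43 to 81 with 1 library left out. Genes with a lost region that were lower numbered 103, 14, 43 and 10 to 25 in the same order. Causes of these shifts, beyond the smaller number of peaks, genes or samples, were not tested. Of 46 called genes named by the rule, 19 kept their call in every setting, 27 lost it without 1 library and 5 in another setting. The replicate block ended the calls of Palld, Ccl8, Emb, Cilp and Car8 and made those of Dpp4 and Smoc2. No called gene named by the rule changed direction in these settings; the folds of Hand2, Igfbp5, Sox9, Wt1 and Ywhaz, none of them called, lay near 0 (−0.14 to 0.16) and took the other sign with 1 library left out (Wt1 also with the replicate block). The files give no reads per region, so depth limits cannot be stated for peaks.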
